A study of Mus musculus with 6 samples.

Results

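Egr2-positive and Egr2-negative wild-type macrophages were compared 2 h after addition of lipopolysaccharide (LPS), a bacterial cell wall component that activates macrophages through the receptor TLR4. Positive cells were those with at least 1 unique molecular identifier (UMI, a tag that marks a single captured RNA molecule) of Egr2, and negative cells were those with 0. Of the 181 wild-type cells at 2 h with at most 25000 UMIs, 48 were positive and 133 were negative, out of 1362 cells in the whole series. The cells were bone marrow-derived macrophages grown in medium conditioned by L929 cells and sequenced singly by MARS-seq, in which each cell occupies a well and captured molecules are counted by UMI. Wild-type mice carried Rad21 WT/WT and Rad21-/- cells came from Rad21 lox/lox mice, both with ERt2Cre expressed from the Rosa26 locus, on a mixed C57BL/6 and 129 background, and cells of both genotypes were treated with hydroxytamoxifen before the experiment. Rad21 is a subunit of cohesin, the ring complex that folds chromatin into loops. The 6 samples were untreated, 2 h and 8 h cells of each genotype (LPS at 10 ng/ml), with 1 sample per condition, so no test between conditions or between groups of cells was made. The number of mice behind each sample is not given in the sources used here. The groups were chosen by the Egr2 UMIs themselves, and Egr2 values are given below as a description.

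Egr2 is a zinc finger transcription factor of the EGR family. Its members are immediate-early genes: their transcription starts within minutes of a growth factor or inflammatory signal, mostly through the ERK MAP kinase pathway and serum response factor, and needs no new protein. NAB1 and NAB2 bind EGR proteins and restrain them, and EGR proteins bind GC-rich sites. Egr2 lies at chr10:67534469-67542188 of GRCm38.p6. Of its 5 RefSeq promoter windows, 4 hold a match to the CArG box (CC, 6 A or T letters, then GG), the element bound by serum response factor. In 3 overlapping windows the match is at the same site, and in the other it lies upstream of it. The first of the 3 is shown for this element. The 250 bases before the start site, on the plus strand at chr10:67537619-67537868 (RefSeq, GRCm38.p6), are given with the match in capitals.
Egr2: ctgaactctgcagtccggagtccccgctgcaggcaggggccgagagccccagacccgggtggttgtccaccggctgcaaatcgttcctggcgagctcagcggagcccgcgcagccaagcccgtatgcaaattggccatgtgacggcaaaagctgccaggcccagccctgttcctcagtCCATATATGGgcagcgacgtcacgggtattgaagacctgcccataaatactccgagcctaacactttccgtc
The match begins 72 bases before the start. Searched on both strands, a CArG box was present in 1.47% of 32851 RefSeq windows of this length. A match in letters is a description and not evidence of binding.

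Egr2 was detected in few untreated cells and most often in wild-type cells at 2 h. In the wild-type samples an Egr2 UMI was found in 5 of 238 untreated cells (2.10%) and in 26.5% of cells at 2 h, with an exact Clopper-Pearson 95% interval of 20.2 to 33.6%. At 8 h it was found in 5 of 253 cells (1.98%). In the Rad21-/- samples the shares were 1 of 267 cells (0.375%) untreated, 17 of 184 cells (9.24%, interval 5.47 to 14.4%) at 2 h and 0 of 222 cells at 8 h, for which the interval reached 1.65%. The intervals here and below cover counting error only. Both genotypes therefore had their highest share at 2 h, and the wild-type share was the higher of the pair at that time. With every cell thinned to 3800 UMIs, that is, reduced at random to the same depth, the shares at 2 h were 17.5% in wild-type and 5.26% in Rad21-/- cells.

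Among the wild-type cells at 2 h, 39 had 1 Egr2 UMI, 8 had 2 and 1 had 3. A Poisson distribution in which every cell made Egr2 in proportion to its total UMIs would give 132.6 cells with 0, 40.2 with 1 and 8.27 with 2 or more, against 133, 39 and 9 observed. The variance of Egr2 counts was 1.06 times their mean. For other inducible genes in the same cells this ratio was 1.11 for Sertad2, 1.39 for Prdm1, 1.55 for Egr1, 1.91 for Ifnb1, 2.89 for Il12b, 9.12 for Peli1 and 12.1 for Tnf. Egr2 had the lowest ratio of these 8 genes, close to that of Sertad2. The genes differed in level, with means of 0.320 UMIs per cell for Egr2, 0.304 for Ifnb1, 2.04 for Peli1 and 20.2 for Tnf. The ratios were not adjusted for level. In Rad21-/- cells the 28 Egr2 UMIs lay in 17 cells with up to 6 in one cell, and the ratio was 2.50. Because 1 UMI separates the groups, a negative cell can hold Egr2 transcripts that were not captured.

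**Figure D1:**
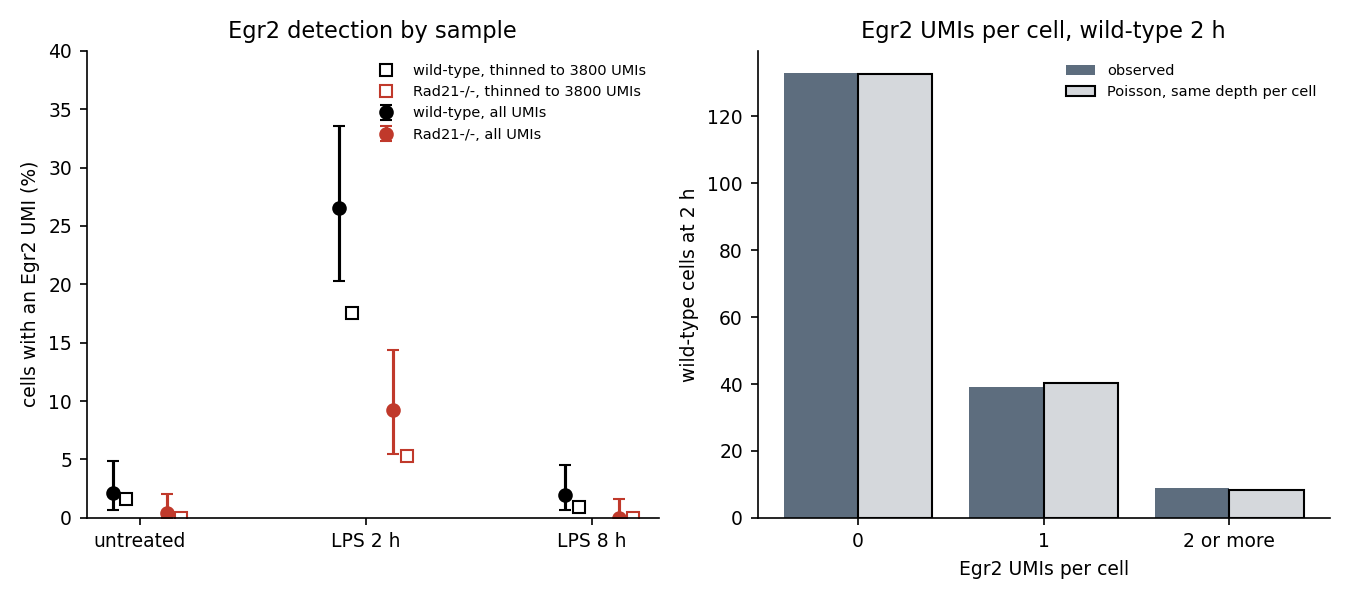
Left, percent of cells with an Egr2 UMI in each of the 6 samples, with all UMIs (filled circles, bars are 95% Clopper-Pearson intervals) and after thinning to 3800 UMIs (open squares). Right, number of wild-type cells at 2 h with 0, 1 or 2 and more Egr2 UMIs beside the number from a Poisson distribution with the same depth per cell; the observed 133, 39 and 9 cells stand next to 132.6, 40.2 and 8.27.

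Positive cells were deeper than negative cells. The median was 6814.5 UMIs per positive cell (range 2669 to 14664) and 5719 per negative cell (range 2414 to 21368). Ordered by depth and cut into groups of 60, 60 and 61 cells, the shallowest to the deepest had Egr2 in 18.3%, 26.7% and 34.4% of cells. The cells came from 7 library pools, which are given in the names of the cells. The 4 pools with at least 5 thinned cells of each kind had 27.3%, 26.2%, 19.5% and 34.8% positive cells and are called pools 1 to 4 below, and the other 3 held 8 cells. These pools are technical parts of 1 sample. All 48 well barcodes of the sample recurred in more than 1 pool, and no pair of pool and barcode was held by more than 1 cell of the series. The limit of 25000 UMIs left out 5 wells, the shallowest with 25105 UMIs and the deepest with 496955, and all 5 held Egr2.

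To compare the groups at equal depth, all cells with at least 3800 UMIs were thinned to 3800, which kept 44 positive and 116 negative cells. Over the 820 genes with at least 100 UMIs in these cells, the profiles of the groups were close to each other. The median log2 ratio of mean UMIs per cell, positive over negative, was 0.0063, with 419 genes higher and 400 lower. On the log2 scale, 93.7% of genes lay within 0.5 of 0. For a typical gene the counting interval alone extended 0.48 to either side. Genes at least 1.5-fold higher in positive cells numbered 11 (1.34% of those measured), and genes at least 1.5-fold lower numbered 18 (2.2%). Which genes passed depended on the random draw: in a second draw from the same cells 13 genes were higher and 15 lower, and only 2 and 2 of them were shared with the first. The ratio averaged over all draws left 4 genes higher and 6 lower and placed 97.6% of genes within 0.5.

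Splits of the same cells by other inducible genes are given for scale. Cells with Ifnb1 (interferon beta) against cells without it gave 27 genes higher (3.29%) and 30 lower (3.66%), with 32 positive cells. Cells with Il12b (the p40 subunit of interleukin 12 and 23) gave 8 higher (0.976%) and 19 lower (2.32%), with 48 positive cells. The Egr2 counts thus lay between those of the other two splits for higher genes and were the smallest for lower genes. In Rad21-/- cells the same Egr2 comparison had only 15 thinned positive cells against 137, and 83 genes (10.1%) were higher and 71 (8.66%) lower by this rule.

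**Figure D2:**
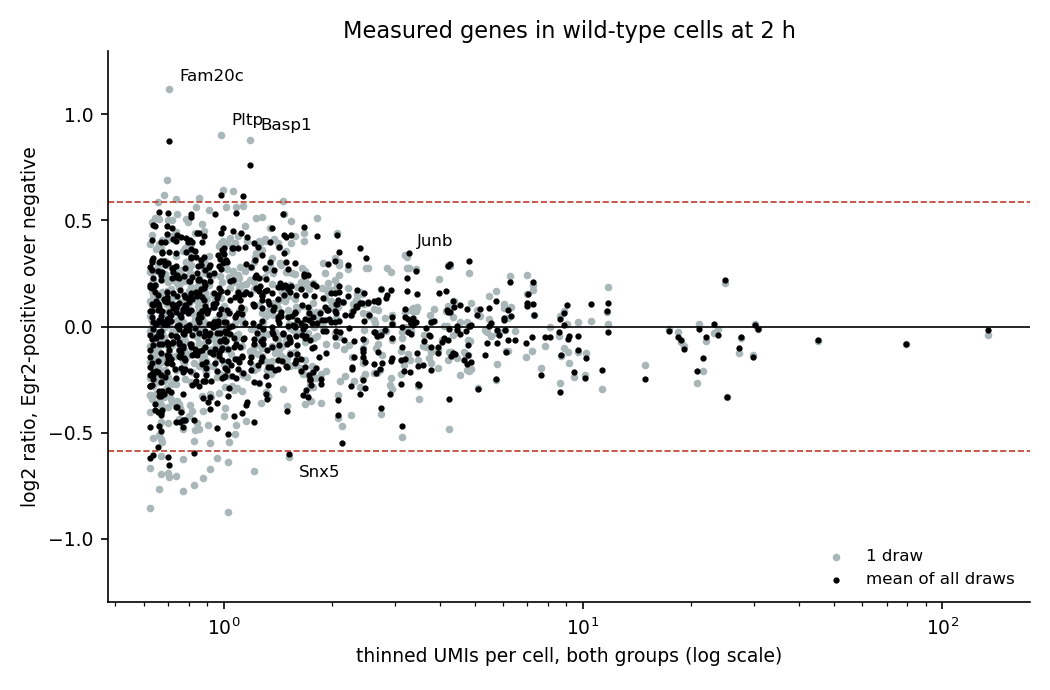
Log2 ratio of mean thinned UMIs per cell, Egr2-positive over negative, against the level of each of the 820 measured genes in wild-type cells at 2 h (log axis). Grey points are 1 draw, black points the mean of all draws, and dashed lines mark 1.5-fold; most genes lie within 0.5 of 0, and Fam20c, Pltp and Basp1 stand highest.

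The closest relatives and partners of Egr2 were too sparse to be measured. Egr1, an EGR factor that recognises the same sites, had 13 UMIs in the 44 positive cells and 30 in the 116 negative cells, 0.295 and 0.259 per cell, a log2 ratio of 0.22 that was -0.17 as the mean of all draws and -0.32 without thinning. Nab1 had 9 UMIs in positive and 13 in negative cells, 0.205 and 0.112 per cell, and was higher in positive cells in all 4 pools, with a log2 ratio of 0.89 (counting interval -0.54 to 2.21). Nab2 had 5 and 9 UMIs. Every one of these intervals included 0. In the unthinned cells, Egr1 was found in 31.3% of positive and 24.8% of negative cells and Nab1 in 31.3% and 20.3%. In Rad21-/- cells none of the 15 positive cells held a thinned Egr1 or Nab1 UMI, against 14 and 33 UMIs in the 137 negative cells. The list held 2 further members that are not analysed here.

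Immediate-early transcription factors were slightly higher in positive cells. Of the 26 members in the table, 5 passed the minimum of 100 UMIs: Irf1, Ier3, Junb and Klf6 were above 0 and Atf3 was below. Their median log2 ratio was 0.33, beside 0.0063 over all measured genes. By pool the median was -0.0047, -0.055, 0.69 and 0.40 (SD 0.35), so that it was above 0 in only 2 of the 4 pools. It was 0.18 in a second draw and 0.13 with cells matched on UMIs within a pool. Irf1, a transcription factor of interferon and antigen presentation genes, had 1.43 UMIs per positive and 0.922 per negative cell (log2 ratio 0.64, 0.45 as the mean of all draws). Ier3, an early response gene that modulates cell survival and is not itself a transcription factor, had 0.977 and 0.647 (0.60, and 0.35 as the mean of all draws). Both were higher in 3 of the 4 pools. Junb, an AP-1 subunit and the most abundant member, had 3.80 and 3.03 UMIs per cell (log2 ratio 0.33, counting interval 0.052 to 0.60). Klf6, a Kruppel-like factor, had 3.32 and 2.78 (0.26). Atf3, a stress-induced repressor of inflammatory genes, had 1.25 and 1.54 (-0.29, and -0.029 as the mean of all draws).

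The sum over all 26 members was chosen for description after these values were seen. Positive cells held 14.1 and negative cells 12 of these UMIs per cell, a log2 ratio of 0.24 (counting interval 0.098 to 0.37) or 0.16 as the mean of all draws, 0.14 in a second draw, 0.13 without thinning and 0.12 with cells matched on UMIs within a pool. In positive cells the lowest, median and highest sums were 4, 14.5 and 23, and in negative cells 2, 11 and 31, so that the groups overlapped over most of their range. By pool, the means in positive and negative cells were 16.0 and 13.9, 13.6 and 12, 13.6 and 10.0, and 13.2 and 11.5, the positive cells being the higher in all 4. Without any 1 member the log2 ratio stayed between 0.20 and 0.30. The same sum gave 0.17 in Rad21-/- cells (11.1 and 9.91 UMIs per cell). It gave 0.094 when the wild-type cells were split by Ifnb1 and 0.0034 when they were split by Il12b. These values are from 1 draw, in which the Egr2 split gave 0.24, and no other setting is given for them. Member by member the direction was mixed, with 15 higher and 11 lower by the mean of all draws. Over all measured genes 53.3% were higher by the same measure, so the members were near that share. Among 23 members with a RefSeq promoter window, 8 held the EGR-type sequence GCGGGGGCG on either strand in the 250 bases before a start. The share was 2.93% of all 27025 genes with a window and 3.80% of measured genes with a window. The 8 were Fosb, Fosl2, Irf1, Klf2, Klf4, Mafk, Nr4a1 and Srf. Only Irf1 of the 5 measured members was among them, and Junb, Klf6, Ier3 and Atf3 were not. Of the genes past 1.5-fold with a window, 1 of 9 higher and 0 of 9 lower genes held GCGGGGGCG. The EGR-type sequence GCGTGGGCG was in 1 of the 23 (Maff, against 0.622% of all genes) and a CArG box in 1 (Srf, against 1.62%).

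**Figure D3:**
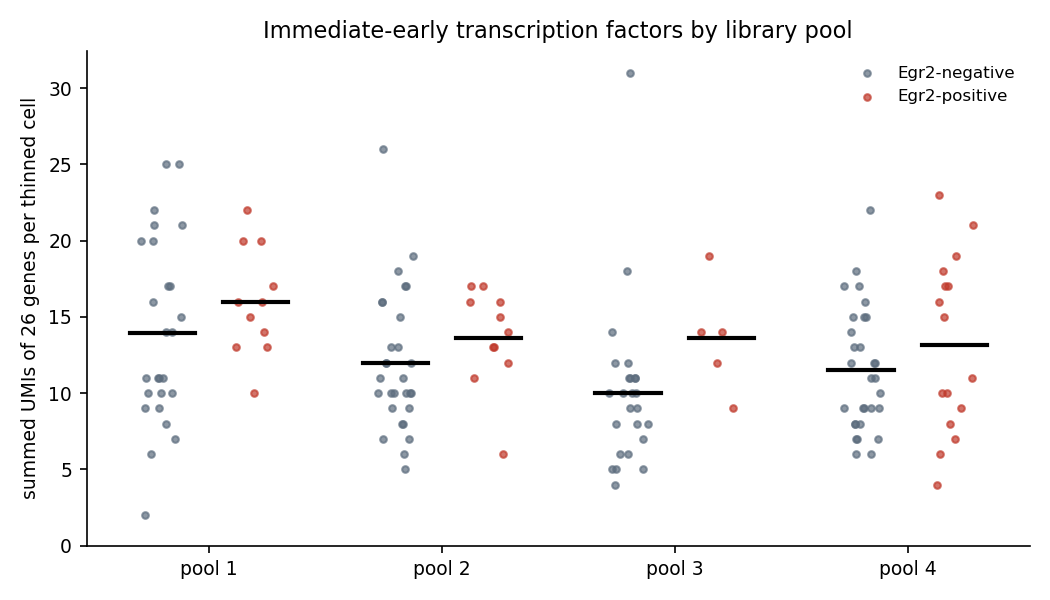
Summed UMIs of the 26 immediate-early transcription factors in each thinned wild-type cell at 2 h, by library pool and Egr2 group; each point is 1 cell and bars are means. Positive cells have the higher mean in all 4 pools, and the spread of cells within each group exceeds the distance between the means.

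The genes of ERK feedback, which are switched on by the same kinase pathway, were mostly below the minimum. Dusp1, a phosphatase that inactivates MAP kinases, was the only measured member of 16, with 1.41 UMIs per positive and 1.07 per negative cell (log2 ratio 0.40, counting interval -0.065 to 0.85) and was higher in 2 of 4 pools. The list summed to 4.05 and 3.54 UMIs per cell, a log2 ratio of 0.19 (counting interval -0.071 to 0.45). In pools 1 to 4 this ratio was 0.16, 0.056, 0.019 and 0.32.

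Inflammatory cytokines were also slightly higher in positive cells. All 5 measured members had a ratio above 0, with a median of 0.19 (SD over pools 0.55), and none reached 1.5-fold. Tnf, the early cytokine of the LPS response, had 12.9 UMIs per positive and 11.3 per negative cell, Tnfsf9, the ligand of 4-1BB, had 7.89 and 6.66, and both were higher in all 4 pools. Il1b had 2.02 and 1.53, and Gdf15 and Il1rn differed by 0.11 and 0.089 on the log2 scale. The summed list had a log2 ratio of 0.22 (counting interval 0.13 to 0.31), which was 0.21, 0.24, 1.05 and -0.046 in pools 1 to 4, so that pool 4 went the other way. The ratio was 0.062 without pool 3, 0.36 without pool 4 and 0.097 in a second draw.

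Chemokines and interferon-stimulated genes did not separate the groups. Of 12 measured chemokines, 5 were higher and 7 lower, with a median log2 ratio of -0.035, and the summed list of 140.3 and 144.0 UMIs per cell had an interval of -0.080 to 0.0047. Ccl4, Ccl3 and Ccl2, which attract monocytes and other leukocytes, had ratios of -0.011, 0.015 and -0.12. Of 9 measured interferon and interferon-stimulated genes, 4 were higher and 5 lower, with a median of -0.026 and sums of 25.4 and 25.3 UMIs per cell. For the 6 measured NF-kappaB subunits and feedback genes the median was 0.15, with 5 higher and 1 lower. By pool the median was 0.059, 0.17, 0.059 and 0.0017. The summed list had a log2 ratio of 0.056 (counting interval -0.049 to 0.16). Its most abundant member Nfkbia, the inhibitor that retains NF-kappaB in the cytoplasm, had 8.84 and 8.54 UMIs per cell. The 7 measured surface activation molecules had a median of 0.048, with 4 higher and 3 lower.

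**Figure D4:**
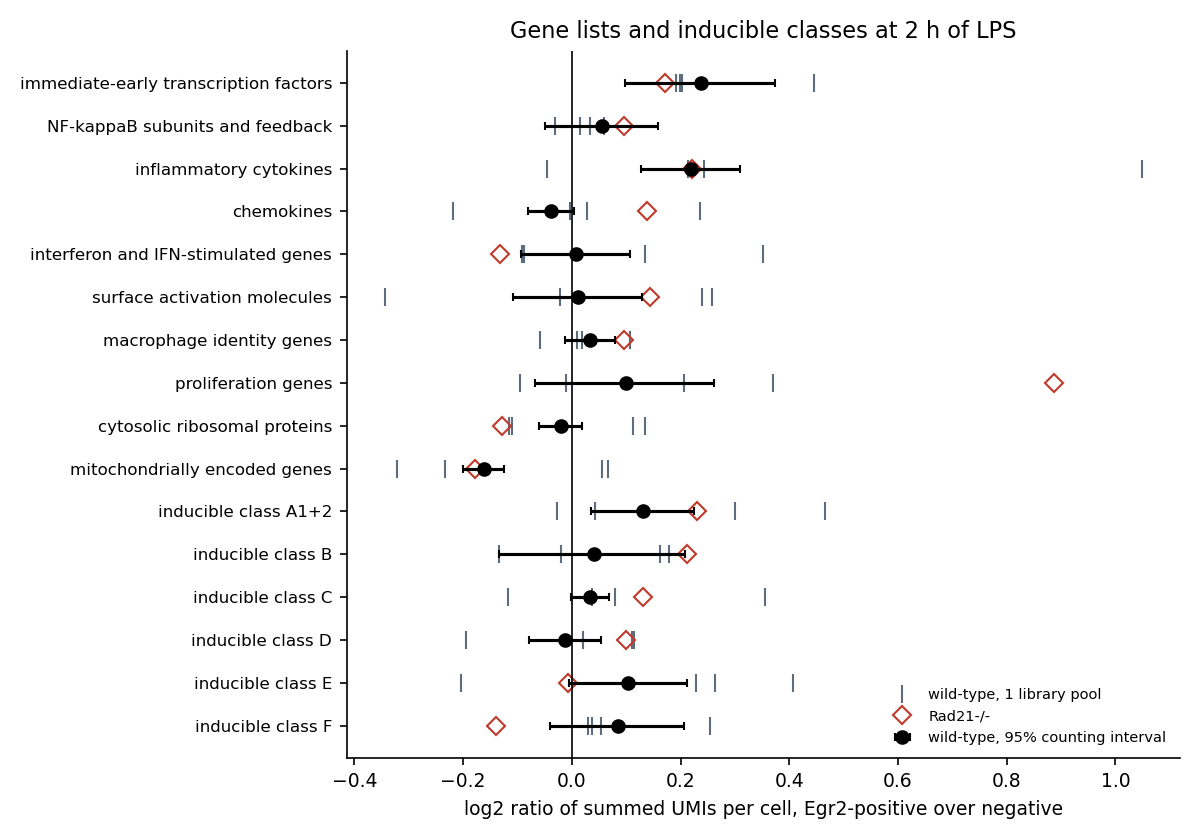
Log2 ratio of summed thinned UMIs per cell, Egr2-positive over negative, for each gene list and inducible class with at least 3 measured members. Filled circles are wild-type cells with 95% counting intervals, ticks are the 4 library pools and open diamonds are Rad21-/- cells. The ticks of the immediate-early list and those of class F all lie above 0, and most other lists have ticks on both sides.

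The study took classes A1+2 to F of LPS-inducible genes from earlier work and kept the members detected in enough cells of these samples, so that this filter used the present data. Egr2 belongs to class A1+2, the earliest primary response, and was left out of it. Of the 13 other measured A1+2 members, 9 were higher and 4 lower in positive cells, beside 419 higher and 400 lower over all measured genes. The median log2 ratio of the A1+2 members was 0.24 (SD over pools 0.26), but 0.020 in a second draw and 0.10 as the mean of all draws. Fam20c and Ier3 were the members past 1.5-fold. Nlrp3, the inflammasome sensor, had a ratio of 0.55, and Zfp36, which promotes decay of cytokine mRNA, 0.068. The other primary class, B, had only 3 measured members with a median of 0.51: Nupr1 at 0.53, Ell2 at 0.51 and Cd44 at 0.048. Class C had 28 members higher and 13 lower of 41 (median 0.092), class D 6 and 9 of 15 (-0.059), class E 6 and 2 of 8 (0.18), and class F 3 and 3 of 6 (0.0047). For classes C to F the SD over pools ran from 0.15 in class D to 0.39 in class E. It was larger than the size of the median in each of these and in class A1+2. The class F sum had log2 ratios of 0.054, 0.029, 0.25 and 0.038 in pools 1 to 4. Over all cells its ratio was 0.084 (counting interval -0.041 to 0.21).

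The 5 other genes that the study imaged by single-molecule RNA-FISH were found in similar shares of both groups at equal depth. In thinned positive and negative cells the shares were 31.8% and 30.2% for Prdm1, 11.4% and 12.9% for Ifnb1, and 18.2% and 22.4% for Il12b. They were 52.3% and 56.9% for Peli1, and 20.5% and 19.8% for Sertad2. In the unthinned cells, Prdm1 was found in 41.7% of positive cells (interval 27.6 to 56.8%) and 44.4% of negative cells (35.8 to 53.2%), and Ifnb1 in 18.8% of each. Il12b was found in 22.9% and 30.1%, Peli1 in 72.9% and 75.9%, and Sertad2 in 45.8% and 33.8%. The intervals of the groups overlapped for each gene. Only Peli1, an E3 ubiquitin ligase of TLR signalling, passed the minimum for a ratio, with 1.20 and 1.09 UMIs per cell (log2 ratio 0.16, counting interval -0.34 to 0.62), and 1 positive cell held 16 of its 53 UMIs.

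Fam20c, which encodes a kinase that phosphorylates secreted proteins in the Golgi, had the highest ratio of all measured genes. It lies at chr5:138755081-138810063. Positive cells held 51 Fam20c UMIs and negative cells 62, or 1.16 per cell (Poisson interval 0.863 to 1.52) and 0.534 (0.410 to 0.685), a 2.17-fold difference and a log2 ratio of 1.12 (counting interval 0.55 to 1.67). In pools 1 to 3 positive cells had 1.36, 1.64 and 1.20 UMIs per cell against 0.462, 0.448 and 0.360, while in pool 4 they had 0.750 against 0.767. It was detected in 63.6% of positive and 35.3% of negative thinned cells, and in 72.9% and 48.1% without thinning. The mean of all draws was 0.88, and over the settings other than leaving out a pool or requiring 2 Egr2 UMIs the ratio lay between 0.52 and 1.09. In Rad21-/- cells, with 6 and 26 UMIs, it was 1.16 (counting interval -0.50 to 2.39).

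Basp1, a membrane-bound protein that also acts as a transcriptional corepressor (chr15:25363277-25413764), had 1.77 UMIs per positive and 0.966 per negative cell. Its log2 ratio was 0.88 (counting interval 0.44 to 1.31), and the positive cells were higher in all 4 pools, by 0.54, 1.78, 0.30 and 0.17. One positive cell held 26 of the 78 UMIs, and without pool 2 the ratio was 0.35. Basp1 was detected in 77.3% of positive and 61.2% of negative thinned cells, and in 79.2% and 76.7% without thinning. By the mean of all draws, Pltp, the phospholipid transfer protein, and Grik3, a glutamate receptor subunit, were also at or above 1.5-fold, with log2 ratios of 0.62 and 0.62, and these were picked out after their values were seen. Pltp had 0.74 in a second draw, but 0.25 at 5500 UMIs, 0.44 without thinning and 0.47 with cells matched on UMIs within a pool. Grik3 had 0.57 in the draw used above and 0.094 without pool 4.

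The other named genes that were higher in positive cells in all 4 pools had smaller ratios. They were Man2b1, a lysosomal mannosidase (0.69), Hnrnpab, an RNA-binding protein (0.64), Atp5d, a subunit of mitochondrial ATP synthase (0.62), Evi2a (0.61), Itgam, the integrin CD11b (0.56), Ldha, lactate dehydrogenase A (0.56), Nupr1, a stress-induced chromatin protein (0.53), and the pseudogenes Rps19-ps9 (0.59) and Txn-ps1 (0.53). Hnrnpab was found in 79.5% of positive cells (64.7 to 90.2%) and 52.6% of negative cells (43.1 to 61.9%) after thinning in 1 draw. Its ratio was 0.55 without thinning, 0.28 at 5500 UMIs and 0.19 with cells matched on UMIs within a pool. In Rad21-/- cells its ratio was 0.77 (counting interval -0.14 to 1.51), and Man2b1, Evi2a, Itgam and Nupr1 were also above 0. Atp5d (-0.66), Ldha (-0.68), Rps19-ps9 (-0.21) and Txn-ps1 (-0.94, counting interval -2.17 to -0.054) were below 0 there. By the mean of all draws none of these 9 genes reached 1.5-fold in wild-type cells. In all, 60 measured genes were higher and 27 were lower in each of the 4 pools, together 10.6% of those measured. Agreement over the pools was part of the rule that named these genes, Basp1 and Snx5, so it is not separate evidence for them.

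**Figure D5:**
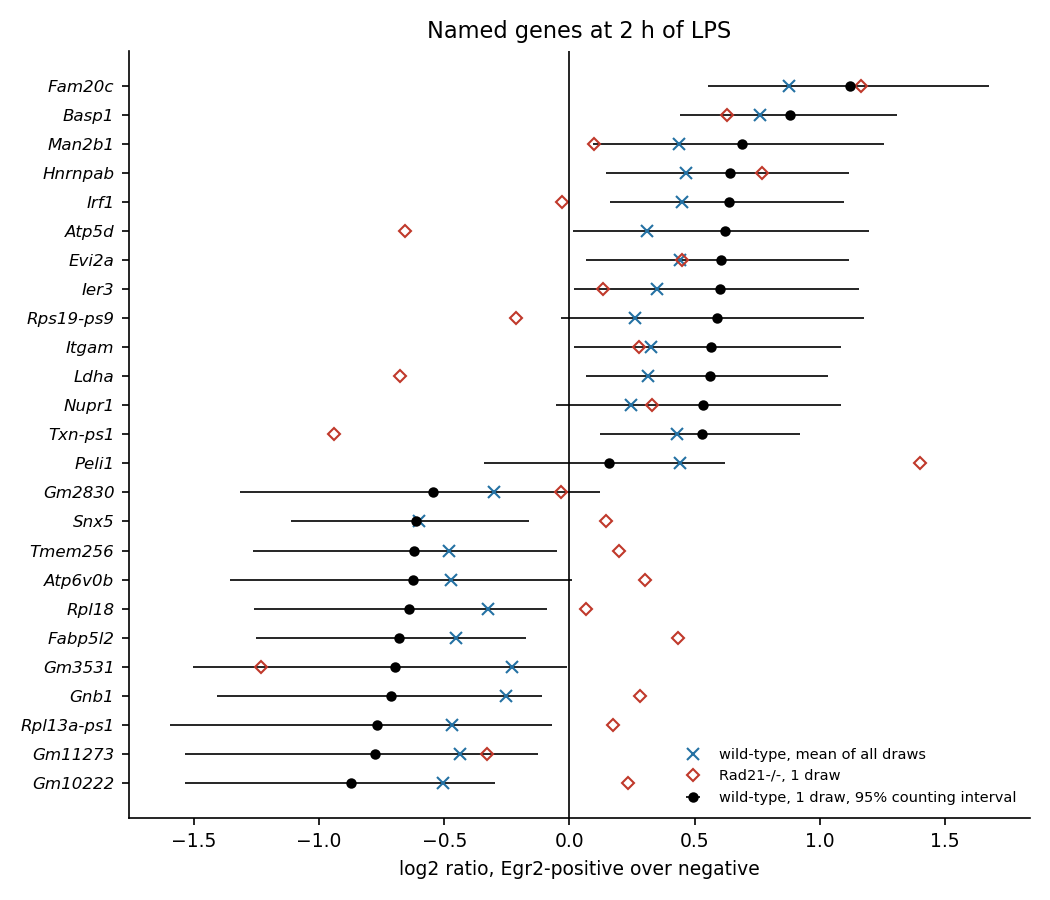
Log2 ratio, Egr2-positive over negative, of the named genes with at least 100 thinned UMIs. Black circles are 1 draw of the wild-type cells with 95% counting intervals, blue crosses the mean of all draws and open diamonds Rad21-/- cells; most crosses lie nearer to 0 than the circles, and the diamonds of most lower genes lie above 0.

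The lower genes varied with the draw as the higher ones did. Of the 18 genes at least 1.5-fold lower in positive cells, of which 2 recurred in a second draw, 5 are annotated as pseudogenes in RefSeq, against 85 of the 820 measured genes, and 0 belong to the inducible classes, which hold 86 of the 820. Reads of such pseudogenes can come from their parent genes. Snx5, a sorting nexin of the retromer pathway at chr2:144250123-144270902, had 1.09 UMIs per positive and 1.68 per negative cell. It was lower in all 4 pools, by ratios of -0.53, -0.69, -0.49 and -0.42, and its log2 ratio was -0.61 in 1 draw, -0.40 in a second draw and -0.60 as the mean of all draws, but 0.15 in Rad21-/- cells. Gnb1, a G protein beta subunit, had a ratio of -0.71 (-0.25 as the mean of all draws), Atp6v0b, a subunit of the vacuolar proton pump, -0.62 (-0.47), Tmem256 -0.62 (-0.48) and the ribosomal protein gene Rpl18 -0.64 (-0.33). Among the pseudogenes and predicted genes, Gm10222, Gm11273, Rpl13a-ps1, Gm3531, Fabp5l2 and Gm2830 ranged from -0.87 to -0.54 and from -0.51 to -0.23 as the mean of all draws.

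Both groups had the expression pattern of macrophages. In the unthinned cells Lyz2 was found in every cell, and Cd68 in 97.9% of positive and 98.5% of negative cells. Csf1r was found in 85.4% and 75.9%, Adgre1 in 89.6% and 76.7%, Itgam in 83.3% and 78.9%, and Fcgr1 in 45.8% and 44.4%. Positive cells were deeper, and these shares were not adjusted for depth. Over 16 measured macrophage identity genes the median log2 ratio was 0.059, with 11 higher and 5 lower, and the lists summed to 123.0 and 120.2 UMIs per cell. Proliferation genes summed to 9.61 and 8.98 UMIs per cell with a median of -0.029 over 4 measured members. The 56 measured ribosomal protein genes had a median of -0.015. Mitochondrially encoded transcripts were lower in positive cells, in 11 of 12 measured genes with a median of -0.22, but the sums differed by 0.066, 0.056, -0.32 and -0.23 in pools 1 to 4. Without thinning they made up a median of 4.45% of the UMIs of positive and 5.19% of those of negative cells. Their part in the other differences was not tested.

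Markers of other cell types had few UMIs in both groups. T cell markers had 11 UMIs in 8 of the 44 positive cells and 27 UMIs in 21 of the 116 negative cells, B cell markers 11 UMIs in 11 cells and 13 UMIs in 11 cells (log2 ratio 1.17, counting interval -0.14 to 2.43), and dendritic cell markers, all from Zbtb46, 2 and 17 UMIs. Fibroblast markers had 8 UMIs in 7 positive cells and 3 UMIs in 3 negative cells, and no cell of either kind held more than 2. Their log2 ratio was 2.68 (counting interval 0.75 to 5.36), the positive cells being the higher. Mast cell and basophil markers had 1 and 6 UMIs, and both neutrophil markers in the table were at 0. Erythroid markers are not analysed here. The part of these few UMIs in the differences was not tested.

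The Rad21-/- cells gave a second sample in which the same split could be made, on fewer positive cells. Of the 11 genes past 1.5-fold higher in wild-type cells, 8 were also higher and 3 lower in Rad21-/- positive cells. Past 1.5-fold higher there were 4 of the 11, beside 83 (10.1%) of the 820 measured genes. Of the 18 lower genes, 6 were also lower and 12 were higher, beside 413 higher and 405 lower over all measured genes. Past 1.5-fold lower there was 1 of the 18, beside 71 (8.66%) of the measured genes. Among the lists, the measured A1+2 genes had a median of 0.36 with 11 of 13 higher, class C 0.11, chemokines 0.18 and interferon-stimulated genes -0.091. Cytokine sums had a log2 ratio of 0.22 in both genotypes. Proliferation genes summed to 5.33 UMIs per cell in the 15 positive and 2.90 in the 137 negative Rad21-/- cells (log2 ratio 0.89), beside 0.099 in wild-type cells.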

How the data were processed

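Single-cell RNA-seq libraries (MARS-seq) of 6 samples were analysed. According to the study's methods, the authors mapped reads with GEMTools 1.7.0 to GRCm38.p4 (Gencode M8), set the UMI edit distance for merging at 2, and removed wells on spike-in share (above 15%) and on mapping rate (below 60%). Counts of UMIs per gene and cell, not normalized, were deposited in 18429 rows. 1 symbol on a pair of rows was summed, which gave 18428 genes.

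Cells were assigned to samples and pools by name, and wells above 25000 UMIs were left out. Total UMIs in the kept wild-type cells at 2 h ranged from 2414 to 21368 per cell. Cells were thinned without replacement to 3800 UMIs. Ratios are log2 of mean UMIs per cell with 0.5 UMI added to the sum of each group, over 820 genes with at least 100 UMIs. The mean of all draws uses expected thinned UMIs and was added after the data were seen, as were the list sums. Cells are not replicates, and with 1 sample per condition no p-value was computed. Intervals are 95% Clopper-Pearson (shares), Poisson (levels) and conditional binomial (ratios) and cover counting error only. UMIs mark molecules, so amplification duplicates are already collapsed.

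Named genes were the EGR and NAB list and the 5 FISH genes, up to 4 members of each other list past 1.5-fold, and the 10 highest and 10 lowest ratios with the same sign in all 4 pools. The members and lists were chosen with earlier results of these data known. Egr2 was chosen on these samples, and the study filtered its inducible classes, taken from earlier work, on detection in them. Alternatives were depth, draw, scaling, matching on UMIs within a pool, the deep wells, at least 2 Egr2 UMIs, pool weights, each pool left out and minimums of 50 and 200 UMIs. The ratio step was tested on simulated data. Python 3.11.15, numpy 2.4.6, pandas 2.3.3, scipy 1.17.1 and matplotlib 3.10.9 were used. RefSeq coordinates and sequences are of GRCm38.p6. Of the 820 measured genes, 526 matched a RefSeq promoter window by symbol.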

Additional observations from a re-analysis of the deposited data

Results flagged for a closer look

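Atp5d, a subunit of mitochondrial ATP synthase, was higher in Egr2-positive wild-type cells in all 4 pools (log2 ratio 0.62) and lower in Egr2-positive Rad21-/- cells (-0.658). The opposite direction in the genotypes drew attention to it, and the difference was not tested. The counting interval in Rad21-/- cells, with 8 UMIs in positive and 122 in negative cells, was -1.98 to 0.28. The mean of all draws was 0.31 in wild-type and -0.29 in Rad21-/- cells. Atp5d was not alone in this among the named genes higher in all 4 wild-type pools. Ldha (-0.68), Rps19-ps9 (-0.21) and Txn-ps1 (-0.94) were also lower in Egr2-positive Rad21-/- cells.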

How the results depend on the processing

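The counts of genes past 1.5-fold depended most on the settings, and which genes passed changed with the random draw. The 11 higher genes became 4 as the mean of all draws, 17 with matching on UMIs within pools, 89 with at least 2 Egr2 UMIs, 108 at a minimum of 50 UMIs and 1 at 200. The 18 lower genes became 6 as the mean of all draws, 6 without thinning, 6 when scaled to genes outside the inducible classes, 102 with at least 2 Egr2 UMIs, 114 at a minimum of 50 and 1 at 200. Leaving out 1 pool gave 10 to 36 higher and 16 to 42 lower genes, most of them without pool 4, which holds 16 of the 44 positive cells.

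The summed ratio of immediate-early factors (0.24) was 0.42 with at least 2 Egr2 UMIs, 0.17 at 5500 UMIs, 0.12 with matching, 0.13 without thinning, 0.13 when scaled, 0.14 in the second draw and 0.18 to 0.27 without 1 pool. That of cytokines (0.22) was 0.097 in the second draw, 0.11 with the deep wells, 0.32 with at least 2 Egr2 UMIs and 0.062 to 0.36 without 1 pool. With at least 2 Egr2 UMIs, which left 9 positive cells, the medians were 0.14 for chemokines, 0.51 for surface molecules, 0.38 for proliferation genes and 0.13 for class D. The NF-kappaB median (0.15) was 0.038 without thinning, 0.063 as the mean of all draws, 0.040 when scaled to other genes and 0.10 to 0.26 without 1 pool. The macrophage identity median (0.059) was 0.0085 at 5500 UMIs, -0.036 without thinning, 0.021 as the mean of all draws, 0.0028 in the second draw, -0.042 with matching, -0.056 with at least 2 Egr2 UMIs, 0.026 with pool weights, -0.031 when scaled, 0.027 and 0.020 at minimums of 50 and 200, and 0.021 to 0.088 without 1 pool. The class A1+2 median (0.24) was 0.020 in the second draw, 0.10 as the mean of all draws and 0.089 at 5500 UMIs. It was 0.072 to 0.26 without 1 pool and -0.055 at a minimum of 200. Class B (0.51, 3 genes) was 0.17 at 5500 UMIs, 0.24 as the mean of all draws, 0.32 in the second draw, 0.33 with matching, 0.12 with the deep wells, 0.068 at a minimum of 50 and 0.26 to 0.54 without 1 pool.

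Of ratios at least 1.5-fold apart, those that changed sign were of Nab2 (-0.20 with the deep wells, -0.56 with at least 2 Egr2 UMIs), Gm11273 (0.42) and Rpl13a-ps1 (0.14) with at least 2 Egr2 UMIs, Gnb1 (0.11 at 5500 UMIs), and Gm3531 (0.0040 without thinning, 0.10 in the second draw, 0.027 with the deep wells, 0.00089 when scaled). Smaller ratios that changed sign were those of Egr1 (0.22, down to -0.32), Prdm1 (0.020, down to -0.57), Nupr1 (-0.091 with the deep wells), Peli1 (-0.69 without pool 2), Sertad2 (-0.51 without pool 1) and Il12b (-0.080 without pool 1). Thinning took the share with Egr2 to 0% in untreated Rad21-/-, 17.5% in wild-type and 5.26% in Rad21-/- cells at 2 h. In the other splits, no thinning gave 54 and 31 genes for Rad21-/- cells, 18 lower genes for Ifnb1, and 2 higher and 6 lower for Il12b, and the deep wells gave 17 higher for Ifnb1 and 12 lower for Il12b. The cause of these shifts was not tested. Samples could not be paired, since each condition is 1 sample. Matching of cells within a pool gave 47 pairs and is given as an alternative with no test.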
